A study of Drosophila melanogaster with 21 samples.

Results

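The Dpr, DIP, Beat and Side proteins are families of neuronal surface and secreted recognition proteins. All genes whose symbol begins with dpr and a number, DIP-, beat- or side were taken, which gave 54 of the 17612 genes in the count table. They were 21 Dpr, 11 DIP, 14 Beat and 8 Side genes. The study asked how the brain transcriptome of the fruit fly Drosophila melanogaster depends on the microRNA miR-34 and on age. In set 1, polyA-selected RNA was sequenced from 20d miR-34 mutant, 20d control, 3d miR-34 mutant and 3d control brains. In set 2, run as a separate experiment, brains of control flies were taken at 3d, 20d and 50d. Each of the 7 groups held 3 biological replicates, 21 libraries in all, and each replicate was a pool of 20 brains from males. The mutants carry {delta}miR-34, as their labels spell it, and the controls are flies of line 5905, which the study's stock list gives as w1118, a white-eye allele that the mutant stock shares.

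Dpr proteins (named for a defective proboscis extension response) and the Dpr-interacting proteins (DIPs) carry immunoglobulin domains and bind each other in specific pairs across the membranes of contacting neurons. Side proteins are transmembrane immunoglobulin proteins, and Beat proteins are their receptors or secreted partners, first known from the steering of motor axons. Both systems act in synaptic partner choice in the developing fly brain, and different neuron types carry different combinations of members.

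Libraries of set 1 held 17932132 to 23109013 counts and those of set 2 held 30890607 to 43713430, and the 54 genes took between 0.34% and 0.55% of them. Every pair of replicates differed by more than sampling noise, with chi-square per degree of freedom of 5.98 to 58.7 over 21 pairs. The mir-34 locus itself was not analysed here, so that the genotype labels were not checked against it. Neurons were marked by all 8 genes of a neuron list (elav, nSyb, brp, Syt1, para, VAChT, Gad1 and VGlut), none of which was at 0. RNA of the retina was also present, since the summed level of 8 photoreceptor markers ranged from 15060 to 51740 CPM (the count relative to the size of the library after TMM scaling). In bulk RNA of whole brains, fewer cells of a type and less RNA per cell cannot be told apart.

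Of the 54 members, 53 had enough counts to be tested in either set. The exception was beat-IIIa (2L, 17131024 to 17173118 in build BDGP6.54), which had 0 counts in all 21 libraries. In that annotation its 4457 exonic bases were wholly covered on the same strand by CG34106, which also had 0 counts in each library. DIP-iota was the other member near the limit of detection, with 1 to 65 counts per library.

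Levels of the members differed widely when they were divided by exon length. In 3d control brains of set 1, dpr7 on chromosome 4 was the highest, at 125 ± 3.35 CPM per kb (SD, n = 3), followed by dpr21 at 96.1 ± 8.56 and dpr12 at 65.0 ± 2.19 CPM per kb. The highest Beat gene was beat-IIa at 53.4 ± 1.85 CPM per kb, which did not overlap with dpr12 within 1 SD. The highest Side gene, side-VIII, stood at 33.3 ± 1.61 CPM per kb, and its neighbours dpr14 at 35.1 ± 0.718 and beat-IIIb at 31.7 ± 0.935 CPM per kb lay within the summed SDs. The highest DIP gene, DIP-gamma, reached 17.3 ± 0.745 CPM per kb, and DIP-alpha and DIP-iota were at 2.06 and 0.364 CPM per kb. The lowest members of the other families were dpr6 at 7.88, side at 9.57 and, among the Beat genes tested, beat-Vc at 11.2 CPM per kb.

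Summed over all members, the level was 5280 ± 183 CPM in 3d mutant brains, against 4639 ± 85.3 CPM in 3d control brains (SD, n = 3 each). At 20d the order was the other way, with 4304 ± 156 CPM in mutant brains and 4870 ± 220 CPM in control brains. The ranges of mutant and control sums did not overlap at either age. In set 2 the sum was 4382 ± 146 CPM at 3d, 3685 ± 284 CPM at 20d and 3621 ± 280 CPM at 50d, so that the 20d and 50d libraries overlapped and lay below the 3d libraries. The DIP sum at 3d, 573 ± 21.4 CPM in mutants against 420.5 ± 2.79 CPM in controls, came largely from DIP-delta. Without that gene it was 424.1 ± 15.6 CPM in mutants against 367.7 ± 5.27 CPM in controls.

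**Figure D1:**
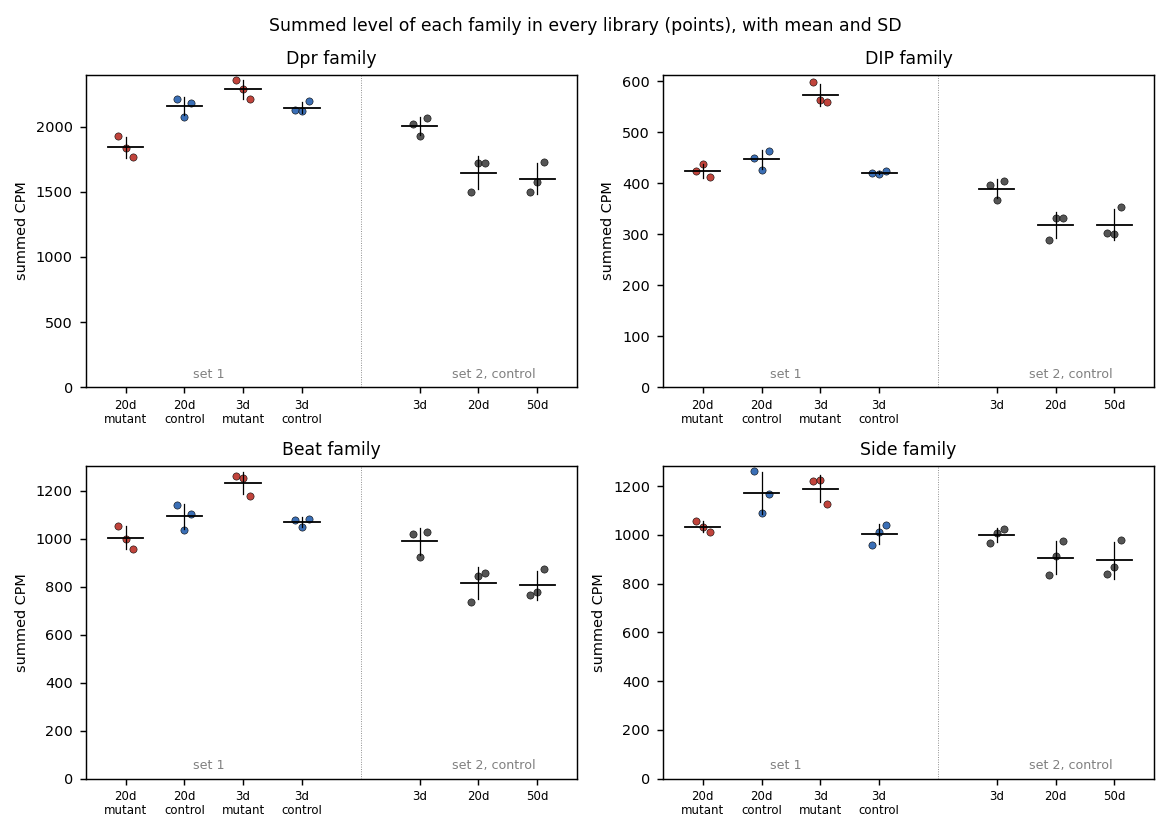
Summed CPM of the Dpr, DIP, Beat and Side families in each library (points), with the group mean (horizontal line) and SD (vertical line). The 4 groups of set 1 are left of the dotted line and the 3 ages of set 2 right of it. DIP sums were 558.9 to 597.5 CPM in 3d mutant libraries and 418.4 to 423.6 CPM in 3d control libraries.

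The first comparison asked how members differed between miR-34 mutant and control brains at 3d. Of 53 members tested, 16 were higher in the mutant, against 16.5% of all genes tested, and 2 were lower, against 15.0% of all genes tested. The 16 were 30.2% of the members, and the median log2 fold change of members was 0.127, beside -0.017 over all genes. Of the Side genes 4 of 8 were higher (side, side-III, side-VI and side-VIII), and of the Beat genes 5 of 13 (beat-IIIc, beat-IIa, beat-Ic, beat-VI and beat-Va). Among DIP genes, DIP-beta, DIP-delta and DIP-zeta rose, and among Dpr genes dpr3, dpr8, dpr11 and dpr12. The 2 lower members, dpr13 and dpr21, were both Dpr genes. Neuron markers were higher in the mutant at this age too: 7 of the 8 were called higher and 0 lower, and their summed level was 10460 to 10920 CPM in 3d mutants and 7080 to 7851 CPM in 3d controls. Of 7 glia markers 4 were higher and 2 lower, with sums of 6735 to 7010 CPM in 3d mutants and 5177 to 5999 CPM in 3d controls. The part of either list in the result was not tested. The number of higher members was 8 without 3d control replicate 1, and likewise 8 without 3d mutant replicate 1 or without 3d mutant replicate 2. Over all genes tested in these fits, 1272 of 10146, 1243 of 10136 and 1327 of 10152 were higher.

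DIP-delta (3L, 5424109 to 5442399), a cell-surface receptor that pairs with Dpr12 and is known from the zoning of mushroom body axons, had the largest difference of all members. It measured 155, 147 and 144 CPM in 3d mutants, against 55.0, 53.4 and 49.8 CPM in 3d controls. The lowest mutant library was well above the highest control library. The log2 fold change was 1.496 (SE 0.08, 2.82-fold, adjusted p = 2.09e-08 by edgeR's quasi-likelihood test). beat-Va (3R, 12840560 to 12848419) measured 71.4, 71.8 and 65.0 CPM in 3d mutants, against 45.6, 43.5 and 43.8 CPM in 3d controls. The groups did not overlap, and the log2 fold change was 0.65 (SE 0.07, adjusted p = 1.8e-05). side-VIII (2R, 20424338 to 20478951), the highest Side gene per kb, measured 282, 293 and 280 CPM in 3d mutants and 174, 186 and 191 CPM in 3d controls. All mutant libraries were higher than all control libraries, with a log2 fold change of 0.63 (SE 0.06, adjusted p = 2.06e-06).

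Against these, dpr21 (2R, 3066499 to 3191011) measured 74.9, 71.3 and 72.4 CPM in 3d mutants and 103, 86.4 and 96.6 CPM in 3d controls. All mutant libraries were lower, and the log2 fold change was -0.39 (SE 0.07, adjusted p = 0.000523). dpr13 was lower by less, with a log2 fold change of -0.26 (SE 0.06, adjusted p = 0.00651). DIP-epsilon had the fourth largest positive value, 0.61, but a wide spread (SE 0.21), and was not called.

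At 20d the picture differed. Only 4 of 53 members were higher in mutants, against 16.6% of all genes tested, and 29 were lower, against 15.4% of all genes tested. The 29 were 54.7% of the members, and the median log2 fold change of members was -0.261, beside -0.0066 over all genes. All families took part, with 12 of 21 Dpr, 6 of 11 DIP, 7 of 13 Beat and 4 of 8 Side genes lower. Of the 8 neuron markers 2 (Gad1 and brp) were called higher and 0 lower, their median log2 fold change was -0.0118, and their summed level was 7104 to 7429 CPM in 20d mutants and 6529 to 7371 CPM in 20d controls. Of 7 glia markers, 3 were higher and 3 lower, with sums of 4279 to 4360 CPM in 20d mutants and 4000 to 4095 CPM in 20d controls. The part of either list in the result was not tested. The number of higher members was 2 without 20d control replicate 3, and the number of lower members was 27 to 33 when single libraries were left out. Over all genes, 1333 of 10128 were higher without 20d control replicate 3, and 1188 to 1596 were lower without single libraries.

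DIP-theta (2L, 5626291 to 5658560), a Dpr-binding receptor, fell most. It measured 24.6, 25.6 and 22.0 CPM in 20d mutants, against 43.9, 42.2 and 44.9 CPM in 20d controls. The groups were widely separated, and the log2 fold change was -0.86 (SE 0.07, 0.552-fold, adjusted p = 1e-06). DIP-beta (X, 21422115 to 21457738), of the same receptor family, measured 38.3, 39.1 and 36.5 CPM in 20d mutants and 61.1, 56.8 and 67.5 CPM in 20d controls. Again no libraries overlapped, with a log2 fold change of -0.70 (SE 0.07, adjusted p = 4.17e-06). dpr21 measured 59.7, 56.7 and 54.1 CPM in 20d mutants and 89.6, 88.7 and 88.2 CPM in 20d controls, a log2 fold change of -0.64 (SE 0.07, adjusted p = 7.11e-06).

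The 4 members that were higher at 20d were DIP-delta, beat-IIIc, beat-Va and dpr7. DIP-delta measured 113, 110.1 and 96.9 CPM in 20d mutants, against 58.9, 50.5 and 60.7 CPM in 20d controls. Mutant libraries stayed above all control libraries, with a log2 fold change of 0.91 (SE 0.08, 1.88-fold, adjusted p = 1.36e-06). beat-IIIc (2L, 17187637 to 17260734) had almost no spread, with 108, 109 and 108 CPM in 20d mutants and 73.8, 73.2 and 75.8 CPM in 20d controls. Its log2 fold change was 0.55 (SE 0.04, adjusted p = 1.03e-06). beat-Va was higher by 0.27 on the log2 scale (SE 0.07, adjusted p = 0.0116), a call that was lost without 20d control replicate 3 (adjusted p = 0.0555) or without 20d mutant replicate 1 (adjusted p = 0.0532).

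**Figure D2:**
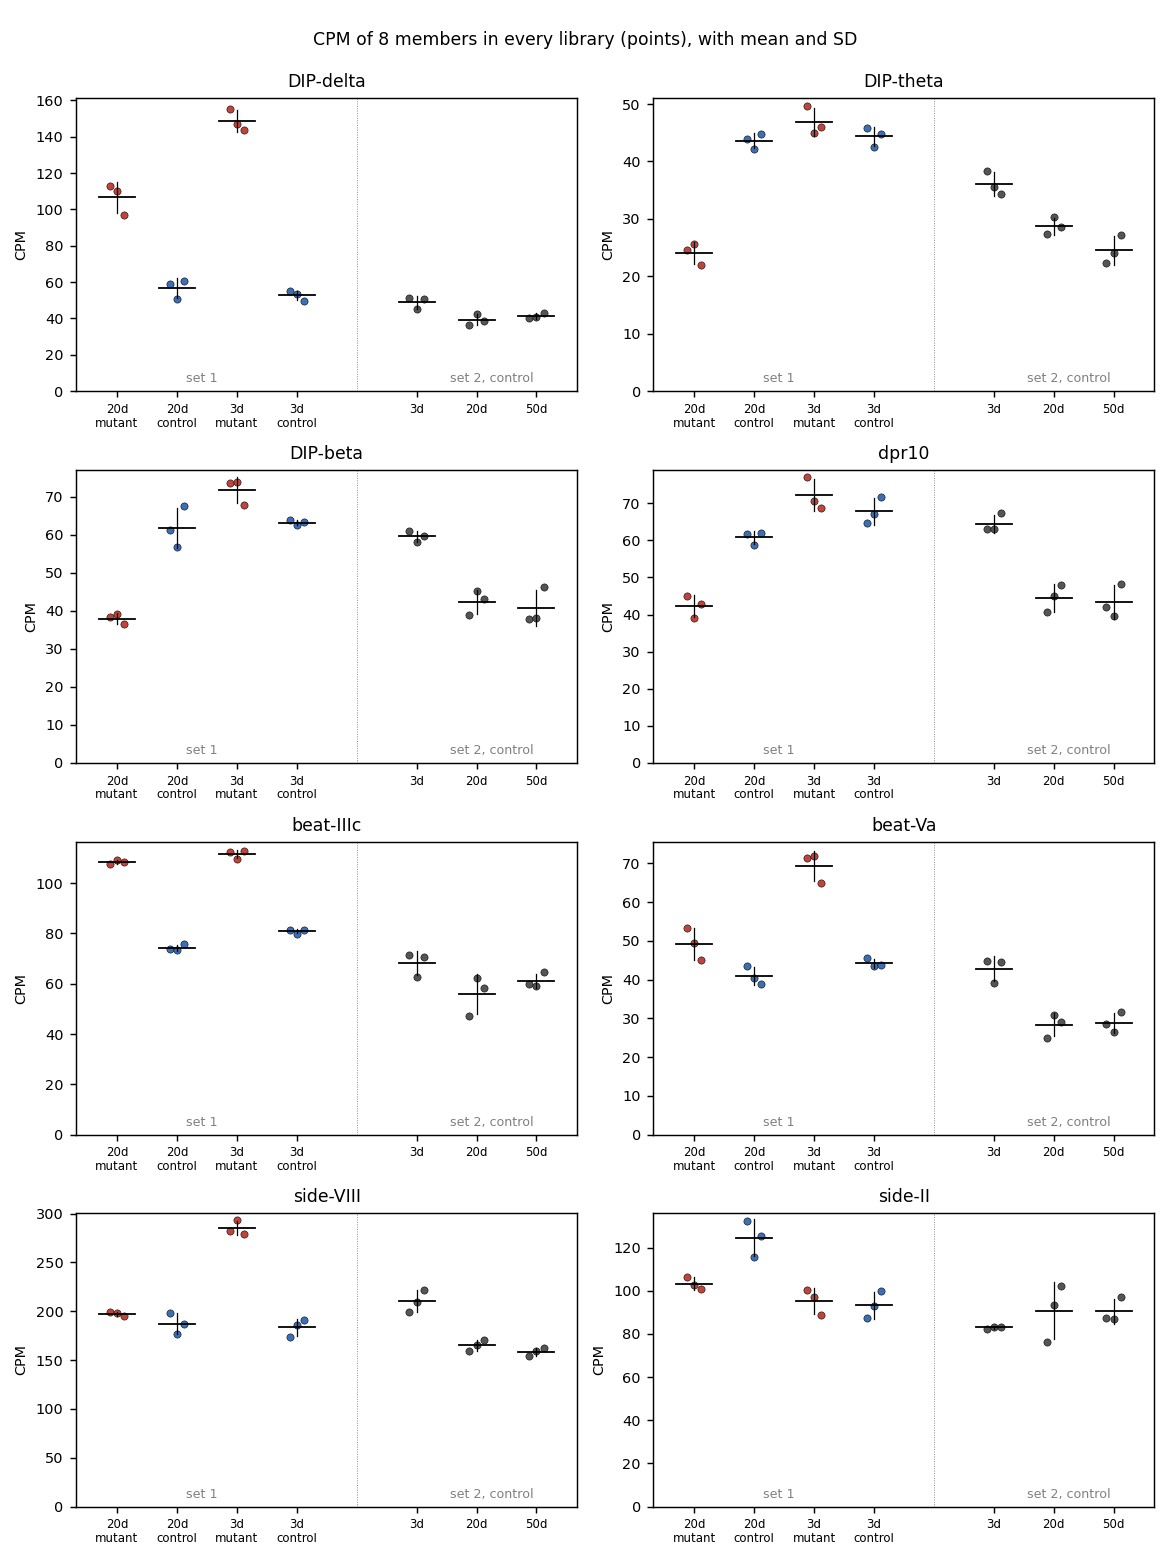
CPM of 8 members in each library (points), with the group mean and SD. The 20d mutant, 20d control, 3d mutant and 3d control groups of set 1 are left of the dotted line, the 3 ages of set 2 right of it. DIP-delta and beat-IIIc were above control at both ages, DIP-theta averaged 24.1 CPM in 20d mutants and 43.6 CPM in 20d controls, and side-II averaged 103 CPM in 20d mutants and 124.5 CPM in 20d controls.

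The same members can be followed over both ages. DIP-delta, beat-IIIc and beat-Va were higher in mutants at both, and dpr13 and dpr21 were lower at both. Another 7 members (dpr3, dpr8, dpr11, dpr12, DIP-beta, beat-Ic and side) were higher at 3d and lower at 20d. The number of all genes with each of these patterns was not counted. dpr8, for example, measured 159, 146 and 150.2 CPM in 3d mutants against 116, 127 and 132 CPM in 3d controls, and 109, 106 and 94.5 CPM in 20d mutants against 144, 132 and 144 CPM in 20d controls. The groups were apart at both ages and in opposite order. Its log2 fold changes were 0.28 (SE 0.07, adjusted p = 0.00712) at 3d and -0.44 (SE 0.07, adjusted p = 0.000279) at 20d. The 3d calls of the other 6 were lost in 2 to 5 of 6 fits that left out 1 library, namely one of the 3d control replicates, 3d mutant replicate 1 or 3d mutant replicate 2, with adjusted p between 0.0528 and 0.149. At 20d, the call of dpr12 was lost without 20d control replicate 3 (0.0566) or 20d mutant replicate 3 (0.062).

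Whether the genotype difference itself changed with age was tested as the age by genotype interaction. No member was higher in this test by edgeR or DESeq2, against 8.29% of all genes tested by edgeR. At an unadjusted p under 0.05 the number was 0 too, which was not counted over all genes. Of the 53, 36 were lower, against 10.3% of all genes tested. The 36 were 12 of 21 Dpr, 8 of 11 DIP, 9 of 13 Beat and 7 of 8 Side genes, side-VII being the Side gene that was not called. The genotype difference was lower at 20d than at 3d in 49 of 53 members, and 38 members had a positive value at 3d and a negative one at 20d. Neither was counted over all genes. The median interaction was -0.417 on the log2 scale over members, beside 0.0171 over all genes (quartiles -0.221 and 0.268). The largest were those of DIP-theta (-0.93, SE 0.10, adjusted p = 0.000145), DIP-beta (-0.88, SE 0.09, adjusted p = 0.000145) and dpr8 (-0.72, SE 0.10, adjusted p = 0.000426). Of the 8 neuron markers 6 were lower in this test and 0 higher, with a median of -0.42, and of 7 glia markers 3 were lower and 2 higher. The part of either list in the result was not tested. A single member was higher when 20d control replicate 2 was left out, and the number of lower members then and in the other fits of this kind was 29 to 38. Over all genes, 969 of 10104 were higher without 20d control replicate 2, and 692 to 1195 were lower without single libraries.

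**Figure D3:**
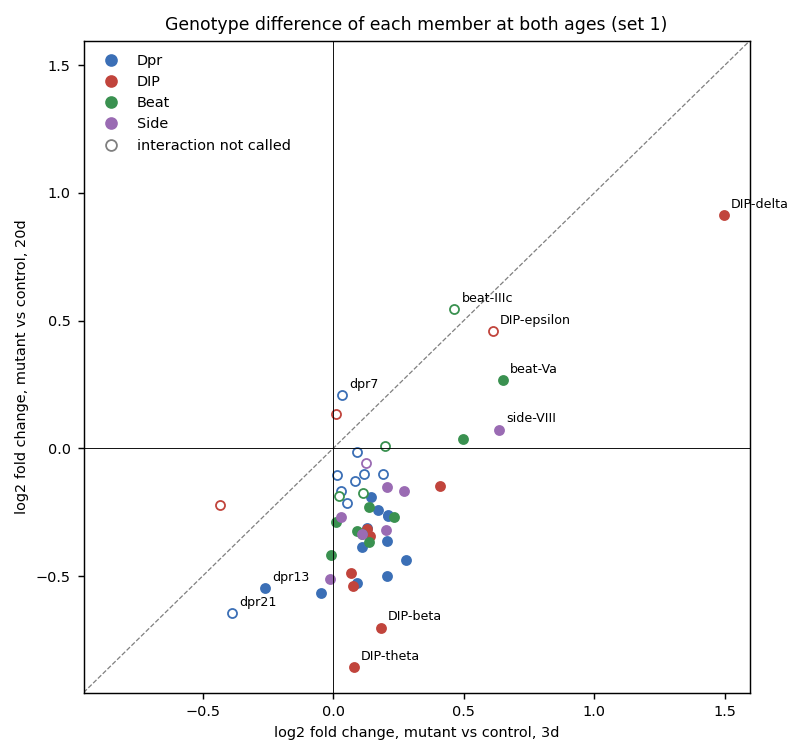
Log2 fold change of miR-34 mutant against control at 20d (vertical axis) and at 3d (horizontal axis) for the 53 members tested, coloured by family. Filled points were called in the interaction test and open points were not. Points lie below the dashed line of equal values in 49 of 53 members, a count not made over all genes. DIP-delta, beat-Va, beat-IIIc and dpr7 were called higher in mutants at 20d, and DIP-epsilon, also labelled, was called at neither age.

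The change with age was then tested within each genotype. In mutant brains, 38 of 53 members were lower at 20d than at 3d, against 23.2% of all genes tested, and 1 was higher, against 22.8% of all genes tested. Those lower were 17 of 21 Dpr, 7 of 11 DIP, 10 of 13 Beat and 4 of 8 Side genes, and the median log2 fold change was -0.358 over members and 0.0185 over all genes. All 8 neuron markers were lower as well, with a median of -0.41. Of 7 glia markers (repo, Eaat1, Gs2, alrm, moody, nrv2 and wrapper) 4 were lower and 2 higher, with a summed level of 4279 to 4360 CPM at 20d and 6735 to 7010 CPM at 3d. The part of either list in the result was not tested. The 1 higher member was DIP-eta, with 44.9, 49.4 and 44.9 CPM at 20d and 33.3, 33.0 and 31.9 CPM at 3d. The ages did not overlap, and the log2 fold change was 0.50 (SE 0.06, adjusted p = 3.04e-05). The number of higher members was 2 without 3d mutant replicate 1 and 3 without 20d mutant replicate 3, beside 1809 of 10136 and 1919 of 10138 genes.

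DIP-theta fell most in mutants, to 24.6, 25.6 and 22.0 CPM at 20d against 49.7, 44.9 and 46.0 CPM at 3d. No library of one age reached the other, and the log2 fold change was -0.96 (SE 0.07, adjusted p = 2.52e-07). DIP-beta followed with -0.92 (SE 0.07, adjusted p = 2.48e-07), and dpr18 with -0.79 (SE 0.06, adjusted p = 5.51e-07). dpr10, a ligand of DIP-alpha, was close to these, with 44.9, 38.9 and 42.9 CPM at 20d, against 77.1, 70.5 and 68.9 CPM at 3d (log2 fold change -0.77, SE 0.07, adjusted p = 1.25e-06).

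In control brains of set 1 the members showed a smaller and mixed change. Between 20d and 3d, 12 of 53 were higher, against 11.3% of all genes tested, and 3 were lower, against 13.3% of all genes tested. The median log2 fold change was 0.0473 over members and 0.0041 over all genes. Of the 12 higher members 6 were Side genes, out of 8 in that family (side, side-II, side-III, side-IV, side-V and side-VI). Of the 8 neuron markers only Gad1 was called, as lower, and of 7 glia markers 4 were lower and 1 higher. The part of either list in the result was not tested. side-II (2L, 14907489 to 14972300) had the largest rise, with 132, 116 and 126 CPM at 20d and 87.1, 92.9 and 99.8 CPM at 3d. The ages were apart, and the log2 fold change was 0.42 (SE 0.07, adjusted p = 0.000783).

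DIP-eta rose by 0.38 on the log2 scale (SE 0.06, adjusted p = 0.000965) and DIP-alpha, a receptor for Dpr6 and Dpr10, by 0.35 (SE 0.09, adjusted p = 0.0114). The call of DIP-alpha was at the threshold without 20d control replicate 1 (adjusted p = 0.05). The largest fall was that of dpr18 (X, 16063738 to 16070304), with 102, 94.1 and 98.3 CPM at 20d, against 128, 117 and 114.9 CPM at 3d (log2 fold change -0.29, SE 0.06, adjusted p = 0.00494). dpr18 libraries of both ages were apart. These counts depended on single libraries: higher members were 5 without 3d control replicate 1, 7 without 3d control replicate 2, 4 without 20d control replicate 1 and 7 without 20d control replicate 3. Over all genes tested, those higher in these fits were, in the same order, 651 of 10146, 740 of 10140, 778 of 10112 and 665 of 10128. Lower members were 1 without 3d control replicate 1 or 3, or without 20d control replicate 1 or 3. Over all genes, the lower ones in those fits were 951 of 10146, 1009 of 10132, 1039 of 10112 and 883 of 10128.

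**Figure D4:**
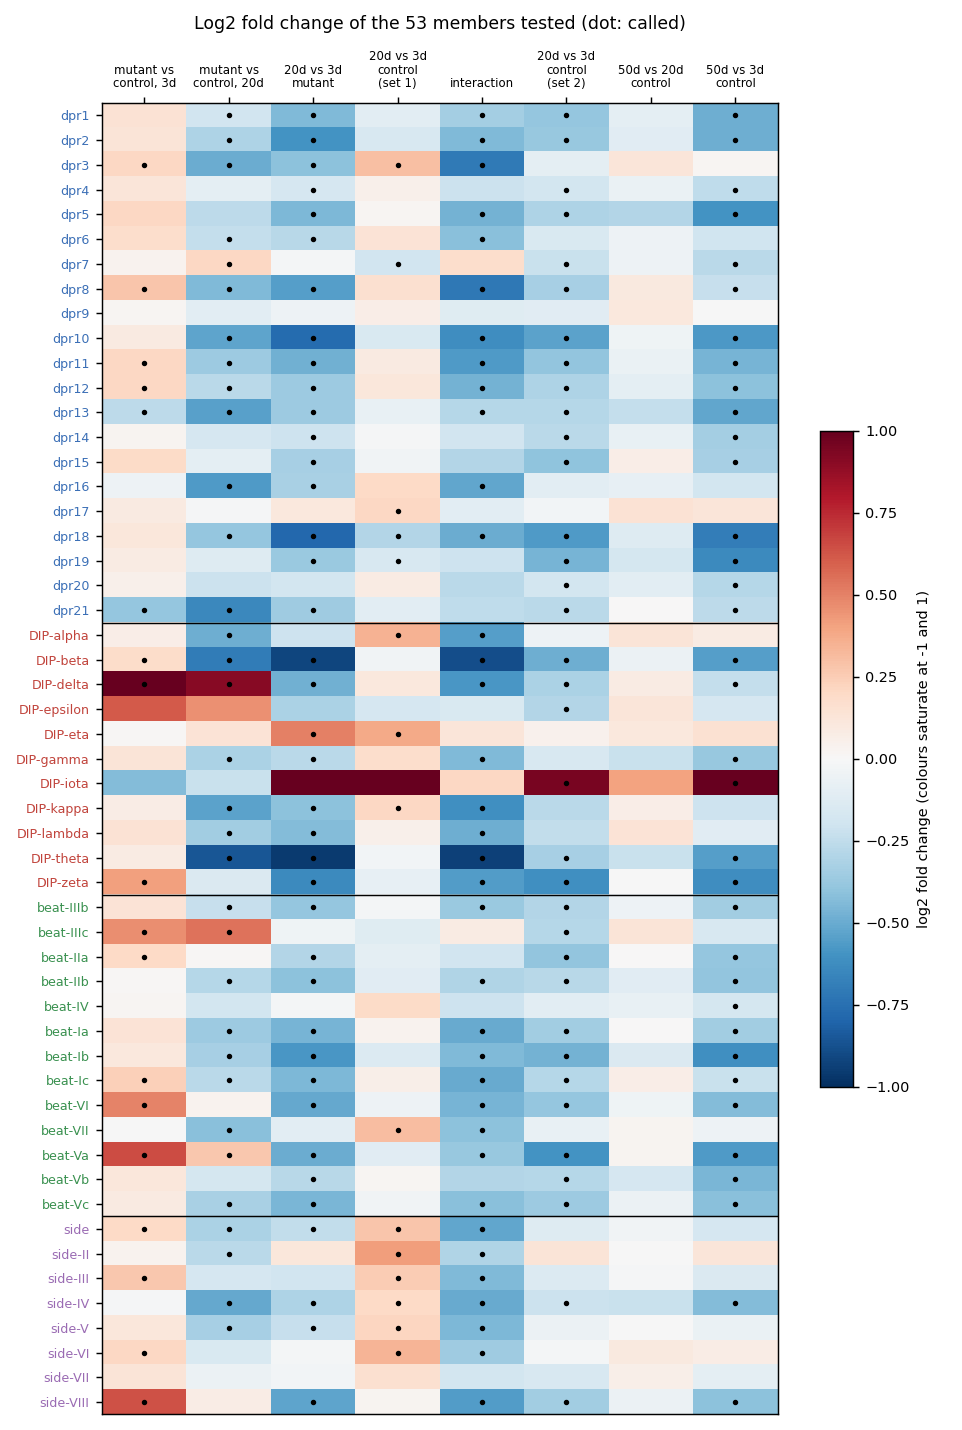
Log2 fold change of the 53 members tested in each comparison, with red for higher and blue for lower in the first-named group or age, and a dot where the member was called. Members are grouped as Dpr, DIP, Beat and Side from top to bottom. Blue dominates at 20d in mutants and with age in set 2, and the column for 50d against 20d holds no dot.

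Set 2 asked how control brains change with age. There, 34 of 53 members were lower at 20d than at 3d, against 19.9% of all genes tested, and 1 was higher, against 19.3% of all genes tested. The 34 were 64.2% of members and comprised 16 of 21 Dpr, 5 of 11 DIP, 11 of 13 Beat and 2 of 8 Side genes (side-IV and side-VIII). The median log2 fold change was -0.282 over members and 0.0098 over all genes. All 8 neuron markers were lower too, with summed levels of 8101 to 8905 CPM at 3d, 5308 to 6000 CPM at 20d and 5197 to 5892 CPM at 50d. Of the glia markers 3 were lower and 2 higher at 20d, with sums of 5572 to 5903 CPM at 3d, 3707 to 3740 CPM at 20d and 3432 to 3645 CPM at 50d. The part of either list in the result was not tested. Without 3d control replicate 3 of set 2, the number of lower members was 22, beside 1528 of 10765 genes.

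DIP-zeta had the largest fall, with 20.3, 27.7 and 28.9 CPM at 20d, against 39.7, 34.6 and 43.5 CPM at 3d. The ages were apart although the spread was wide (log2 fold change -0.61, SE 0.15, adjusted p = 0.0104). beat-Va measured 25.0, 30.9 and 29.2 CPM at 20d and 44.9, 39.2 and 44.5 CPM at 3d. Its log2 fold change was -0.59 (SE 0.09, adjusted p = 0.000371). dpr18 fell here as in set 1, by 0.56 on the log2 scale (SE 0.06, adjusted p = 3.7e-05). The 1 higher member, DIP-iota, rested on 47, 33 and 43 counts at 20d and 27, 14 and 22 counts at 3d. Its log2 fold change of 0.95 (SE 0.32, adjusted p = 0.0333) was not called without 3d control replicate 2 (0.0981), 3d control replicate 3 (0.0537) or 20d control replicate 1 (0.135) of set 2.

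At 50d against 20d no member was called, against 5.51% of all genes tested called higher and 4.21% called lower by edgeR. At an unadjusted p under 0.05 there were 6 members, all lower, a number not counted over all genes. DESeq2 called 3 lower, beside 656 of 10174 genes. The number of members lower was 2 without 20d control replicate 1 or without 50d control replicate 3 of set 2, beside 265 of 10762 and 238 of 10708 genes. Between 50d and 3d, 34 of 53 were lower, against 24.9% of all genes tested, and 1 (DIP-iota) was higher, against 25.9% of all genes tested. dpr18 fell most over this span, with 118, 113 and 126 CPM at 3d, 74.8, 84.9 and 80.7 CPM at 20d and 70.3, 74.1 and 75.6 CPM at 50d. Libraries of 50d lay below all of 3d and overlapped with those of 20d, and the log2 fold change of 50d against 3d was -0.69 (SE 0.06, adjusted p = 2.88e-06). dpr19 followed at -0.64 (SE 0.06, adjusted p = 1.82e-06) and DIP-zeta at -0.62 (SE 0.15, adjusted p = 0.00712). DIP-iota measured 1.16, 1.68 and 1.68 CPM at 50d and 0.68, 0.418 and 0.666 CPM at 3d (log2 fold change 1.35, SE 0.32, adjusted p = 0.00352).

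The controls of the 2 sets share no library, and both hold the step from 3d to 20d, so their values can be set side by side. Only dpr7, dpr18 and dpr19 were lower in both, out of 3 members lower in set 1 and 34 lower in set 2. Over 9896 genes tested in both sets, 948 were lower in both. They were 71.5% of the genes lower in set 1 and 45.8% of those lower in set 2. In fits that left out 1 library, the set 1 call of dpr7 was lost without any library but 20d control replicate 2 (adjusted p up to 0.151), and its set 2 call without replicate 1 or 3 of either age (up to 0.172). The set 1 call of dpr19 was lost without any library but 3d control replicate 2 (up to 0.198), and dpr18 kept its call in all of these fits in both sets. side-IV was higher in set 1 and lower in set 2. Its set 1 call was lost without any library but 20d control replicate 2 (up to 0.155), and its set 2 call without 3d control replicate 2 or 3 or 20d control replicate 1 or 2 (up to 0.0983). A further 30 members were lower in set 2 and not called in set 1, and 11 were higher in set 1 and not called in set 2. Neither pattern was counted over all genes.

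For each of the 53 members the log2 fold change of 20d against 3d was more positive in set 1 than in set 2, by a median of 0.317 and a range of 0.0289 to 0.532. Over 9896 genes tested in both sets the median of this difference was -0.00767, and it was positive in 49.0% of them. The sign was the same in 25 of 53 members, beside 70.1% of all these genes, and 28 members were positive in set 1 and negative in set 2. Across the 53 members, Pearson's r was 0.895 and Spearman's rho 0.783, and without DIP-iota they were 0.815 and 0.77, beside 0.567 and 0.587 across all these genes. Genes are not independent replicates and the libraries within a set are shared by all of them, so these are descriptions. The difference between the sets was not tested, since set and experiment cannot be told apart. The neuron markers differed between the sets as well, with 1 of 8 lower in set 1 and 8 of 8 in set 2.

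**Figure D5:**
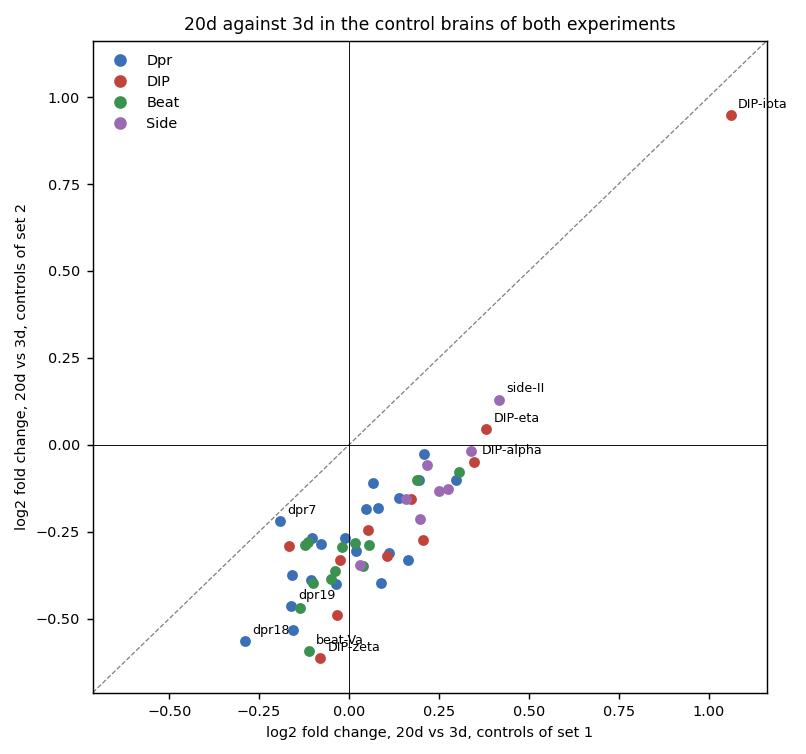
Log2 fold change of 20d against 3d in control brains of set 2 (vertical axis) and of set 1 (horizontal axis) for the 53 members tested, coloured by family. All points lie below the dashed line of equal values, by a median of 0.317.

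Mutant brains of set 1 and control brains of set 2 also share no library. In both, 30 members were lower at 20d than at 3d, which is 78.9% of the 38 lower in mutants and 88.2% of the 34 lower in set 2 controls. Of all 53 members, 71.7% were lower in mutants and 64.2% in set 2 controls. Over 9896 genes tested in both sets, the genes lower in both were 67.3% of those lower in mutants and 74.7% of those lower in set 2. The sign was the same in 52 of 53 members and in 79.6% of all these genes. Of the 29 members lower in 20d mutants than in 20d controls, 18 (62.1%) were among the 34 that were lower at 20d in set 2, which is 52.9% of those. The 34 make up 64.2% of all members tested. Over all genes tested in both sets, this overlap was 29.3% of the genes lower in 20d mutants and 21.7% of those lower at 20d in set 2. The 4 members higher in 20d mutants (dpr7, DIP-delta, beat-IIIc and beat-Va) were all among the 34. This last overlap was not counted over all genes.

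Binding partners were set side by side. DIP-delta was 2.82-fold higher in mutants at 3d, and its ligand dpr12 measured 369, 362 and 330 CPM in 3d mutants and 294, 308 and 315 CPM in 3d controls. dpr12 libraries were apart at 3d, by a log2 fold change of 0.21 (SE 0.07, adjusted p = 0.0409), a call that was lost without any of the 3d control replicates or 3d mutant replicates 1 and 2 (up to 0.147). At 20d the partners differed in opposite directions, DIP-delta by 0.91 and dpr12 by -0.27. DIP-alpha and its ligands dpr6 and dpr10 were each lower in 20d mutants, by -0.49, -0.24 and -0.53 on the log2 scale. The dpr6 call was lost without 20d control replicate 1 or without 20d mutant replicate 2 or 3 (adjusted p up to 0.0755). DIP-gamma and dpr11, which pair in the visual system, were lower by -0.32 and -0.36 at 20d. All of the 7 genes in these 3 pairings were lower in the interaction test, in which 67.9% of all members and 10.3% of all genes were lower.

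Among Side and Beat partners, side, a guidance cue for motor axons, and its receptor beat-Ia were lower in 20d mutants by -0.32 and -0.37. In controls of set 1, side was higher at 20d by 0.28, a call that was lost without 3d control replicate 1 (0.055) or 20d control replicate 1 (0.0508), while beat-Ia had a value of 0.04 and was not called. side-II was lower in 20d mutants by -0.27, and its partner beat-IV had a value of -0.19 and was not called. side-IV and its partners beat-IIa and beat-IIb split: side-IV and beat-IIb were lower in 20d mutants, by -0.51 and -0.29, and beat-IIa had a value of 0.01. side-IV measured 98.7, 98.9 and 95.4 CPM in 20d mutants, against 148, 127 and 143 CPM in 20d controls, with no overlap.

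Members lay on 6 chromosome arms, with 21 on 3R, the arm of the mir-34 gene, 16 on 2L, 7 on 2R, 5 on X, 4 on 3L and 1 on chromosome 4. The nearest to mir-34 was side-VII at 361.0 kb, which was called in none of the 7 comparisons between groups, and the same held for dpr9. At 20d, 8 of 21 members on 3R were lower in mutants and 1 higher, beside 9 of 15 tested on 2L, 6 of 7 on 2R and 4 of 5 on X. Over all genes tested 15.4% were lower and 16.6% higher. The share of all genes called on each arm was not counted, so the arms were not compared. Some members share exonic bases with a gene on the opposite strand, namely dpr4, dpr16, DIP-alpha, DIP-gamma, DIP-zeta and side-IV. The strand setting of the counting is not given in the sources used here, so reads of opposite genes cannot be told apart for these. The overlap was 3457 bases in side-IV, with the antisense RNAs CR17025 and CR46354. On the same strand, DIP-alpha shared 158 bases with CG2875, DIP-theta 363 with the noncoding RNA CR44822 and beat-Ic 42 with an INE-1 element. No strand setting could separate reads in those bases.

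Other surface recognition and guidance genes were taken as a list of 65, such as Fas2, Dscam1, robo1, the teneurins and the plexins, all of which were tested. The list also held wrapper, which was counted among the glia markers too. In mutants 25 of the 65 were higher and 7 lower at 3d (38.5% and 10.8%, beside 16.5% and 15.0% of all genes). At 20d 7 were higher and 27 lower (10.8% and 41.5%, beside 16.6% and 15.4% of all genes). The medians were 0.168 and -0.164. In the interaction test 27 of 65 were lower and 0 higher, which is 41.5%, beside 67.9% of the members and 10.3% of all genes. At 20d against 3d, 10 were higher and 29 lower in mutants (15.4% and 44.6%, beside 22.8% and 23.2% of all genes). In set 1 controls 20 were higher and 5 lower (30.8% and 7.69%, beside 11.3% and 13.3% of all genes). In set 2 controls 8 were higher and 16 lower (12.3% and 24.6%, beside 19.3% and 19.9% of all genes). cDIP, a secreted leucine-rich-repeat protein that binds Dprs and DIPs, was lower in 3d mutants by -1.11 (SE 0.28, adjusted p = 0.013) and was not called in 20d mutants (-0.43, adjusted p = 0.238). With age it was higher at 20d than at 3d in mutants by 1.09 (adjusted p = 0.00944) and in set 2 by 1.16 (SE 0.11, adjusted p = 1.48e-05), and was not called in set 1 controls (0.41, adjusted p = 0.288).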

How the data were processed

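Male brains (20 per replicate) were extracted with Trizol and polyA-selected stranded libraries were sequenced, 3 biological replicates in each of 7 groups. The authors aligned the reads with HISAT2 at default settings and counted them per gene with HTSeq. Their methods name different FlyBase releases for genome and annotation, and their versions and the strand setting are not given in the sources used here. The authors deposited raw counts per gene for all 21 libraries, without normalization, and tested them with DESeq2. Growth temperature differs between labels and methods.

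The sets were run separately and fitted separately. Group means were compared with edgeR 4.0.16 in R 4.3.3 (TMM, robust quasi-likelihood test). filterByExpr with a minimum count of 10 left 9961 genes for set 1 and 10525 for set 2, and genes were called at a Benjamini-Hochberg adjusted p under 0.05 over all of them. The SE was the absolute log2 fold change divided by the square root of F, and the biological coefficient of variation was 13.0% and 12.9%. The script was tested on simulated data. Levels of different genes were compared as CPM per kb of the union of exons of Ensembl release 115 (BDGP6.54), to which all 54 members matched by gene identifier. Tables were handled with pandas 2.3.3 and numpy 2.4.6 in Python 3.11.15.

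Values in each library were given for the members with the largest rise and fall in each comparison, among called members whose libraries did not overlap. Further members were named as partners in known pairs, as the highest or lowest in their family, or as called at both ages or in both sets, and some for their values (DIP-epsilon, dpr9 and side-VII). Members, pairs and lists were chosen with earlier results of these data known. Fat body, hemocyte and muscle markers were also summed: in 3d mutants 0 of 3 hemocyte, 1 of 4 muscle and 0 of 5 fat body markers were higher, with 3 of 5 fat body markers lower.

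Alternatives were DESeq2 1.42.0, RLE size factors, leaving out the low-count filter or asking for 10 counts in each library, a fit of the compared groups alone, an adjusted p under 0.01, the replicate number as a block, family sums without the most abundant member, and each library left out. When a library was left out its group held a pair, and the spread was pooled over groups. p-values measure the spread between pools of brains. Sequences of the members were not used here.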

Additional observations from a re-analysis of the deposited data

Results flagged for a closer look

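In 36 members the difference between mutant and control brains was not the same at 20d and 3d by the interaction test (edgeR, adjusted over all genes tested). Values below are the log2 fold change of mutant against control at 20d minus that at 3d. Among Dpr genes they were dpr8 (-0.72), dpr3 (-0.70), dpr10 (-0.62), dpr11 (-0.57), dpr16 (-0.52), dpr18 (-0.50), dpr12 (-0.48), dpr5 (-0.47), dpr2 (-0.44), dpr6 (-0.41), dpr1 (-0.34) and dpr13 (-0.29). Among DIP genes they were DIP-theta (-0.93), DIP-beta (-0.88), DIP-kappa (-0.62), DIP-delta (-0.58), DIP-zeta (-0.56), DIP-alpha (-0.55), DIP-lambda (-0.49) and DIP-gamma (-0.44). Beat genes gave beat-Ic (-0.50), beat-Ia (-0.50), beat-VI (-0.46), beat-Ib (-0.44), beat-Vc (-0.42), beat-VII (-0.41), beat-Va (-0.38), beat-IIIb (-0.37) and beat-IIb (-0.30). Side genes gave side-VIII (-0.56), side (-0.52), side-IV (-0.50), side-V (-0.45), side-III (-0.44), side-VI (-0.36) and side-II (-0.30). Every one of the 36 was negative, and 14 of the members concerned had been called higher in mutants at 3d. Over the 12 fits that each left out 1 library, the number of lower members was 29 to 38, beside 692 to 1195 of all genes. Values of 15 members were followed one by one through these fits, and 2 of these calls were lost, that of side-II in 8 of 12 fits (adjusted p up to 0.122) and that of beat-IIb in 4 of 12 (up to 0.0598). Both were also lost without the filter on low counts (0.0656 and 0.0567). No group of 3 libraries was tested for a single outlying library.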

How the results depend on the processing

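Of 101 named values called, 27 had an adjusted p of 0.01 or more. Over the other tools, filters and designs 573 values kept their call and direction and 18 lost the call, and without 1 library 615 kept it and 81 lost it, with no change of direction. Without the filter on low counts, 7 calls were lost (adjusted p 0.0522 to 0.0886): DIP-beta and side at 3d, dpr19 and side-IV at 20d against 3d in set 1 controls, side-II and beat-IIb in the interaction and beat-IV at 50d against 3d. With only the groups compared, 4 were lost (0.0639 to 0.105) and with at least 10 counts in every library 2 (0.0507 to 0.0537), all among dpr7, dpr19, side-IV and beat-IV with age in controls. Under the replicate block, calls of DIP-beta at 3d, of dpr7, dpr19 and side-IV at 20d against 3d in set 1 controls and of side-II in the interaction were lost (0.0527 to 0.0628). The block gave 1 lower member for 20d against 3d in set 1 controls, beside 1367 of 9961 genes. It gave 5 for 50d against 20d, beside 584 of 10525 genes, and changed no other count of members by over 1.5 times. Replicate numbers were not taken as pairs, since no comparison had every same-numbered pair correlated over 0.1 (lowest -0.162, highest 0.332). In 50d against 20d, however, each library correlated best with its own number, and the lowest pair there stood at 0.0905, just under that cut.

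At an adjusted p under 0.01, 7 members were higher in 3d mutants, 2 in 20d mutants, 4 higher and 1 lower at 20d in set 1 controls, and 0 higher and 22 lower at 20d in set 2. Of all 9961 genes, 1063 were higher in 3d mutants and 1073 in 20d mutants at that threshold, and 458 were higher and 711 lower at 20d in set 1 controls. Of 10525 genes in set 2, 1249 were higher and 1415 lower at 20d. With only the groups compared, 1 member was lower at 20d in set 1 controls, beside 1060 of 9634 genes. For 50d against 20d, lower members were 3 by DESeq2, 1 with RLE factors and 1 with at least 10 counts in every library. Beside them, 656 of 10174, 481 of 10525 and 486 of 9405 genes were lower. Leaving out 1 library gave 8 to 17 higher and 2 lower members in 3d mutants, 2 to 4 and 27 to 33 in 20d mutants, 0 to 1 and 29 to 38 in the interaction, 1 to 3 and 36 to 40 at 20d in mutants, 4 to 15 and 1 to 2 at 20d in set 1 controls, 0 to 1 and 22 to 33 at 20d in set 2, 0 and 0 to 2 at 50d against 20d, and 1 and 29 to 39 at 50d against 3d. Over all 10080 to 10152 genes of set 1, 1243 to 1426 were higher and 1031 to 1299 lower in 3d mutants. In 20d mutants they were 1318 to 1708 and 1188 to 1596, and in the interaction 546 to 969 and 692 to 1195. At 20d they were 1809 to 2105 and 1935 to 2174 in mutants, and 651 to 1204 and 883 to 1319 in controls. In set 2 (10698 to 10783 genes) they were 1673 to 1974 and 1528 to 1840 at 20d. At 50d they were 317 to 433 and 238 to 328 against 20d, and 2351 to 2583 and 2263 to 2451 against 3d. The cause was not tested.

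Without DIP-delta the log2 ratio of the DIP sum was 0.206 for mutant against control at 3d and -0.296 at 20d, beside 0.446 and -0.074 with it. Without side-VIII the Side ratio was 0.145 at 3d and -0.115 for 20d against 3d in mutants, and without beat-VII the Beat ratio for 20d against 3d in set 1 controls was -0.0305, beside 0.248, -0.204 and 0.0317 with these genes. At 1 to 65 counts, DIP-iota was limited by depth.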
